A study of Mus musculus with 7 samples.

Results

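Clusters of distal H3K27ac peaks were described in primary mouse chondrocytes. H3K27ac is an acetylation of histone H3 found at active promoters and enhancers. The clusters were chosen by a rule on the peak list of 1 library, chondrocyte H3K27ac replicate 1. Its peaks on chromosomes 1 to 19 and X were kept as distal when they reached no protein-coding transcription start site (TSS) within 1 kb, neighbours were joined over gaps of at most 12.5 kb, and joined groups of at least 4 peaks were kept. Of 25580 replicate 1 peaks, 15800 were distal, and 1475 of these (9.34%) formed 316 clusters. The position, number and width of the peaks were selected on by this rule and are given as a description.

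Distal sites with H3K27ac are usually read as active enhancers, stretches of DNA that raise transcription of a gene at a distance. Long runs of such sites often lie at genes that define a cell type. In cartilage, Sox9 is the transcription factor that directs chondrocyte differentiation, Sox5 acts with it, and Col2a1 and Acan encode the collagen and the proteoglycan that make up most of the matrix.

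ChIP-Seq peak lists were analysed for 6 libraries, and an input library of the series was not analysed here. Primary chondrocytes from rib cartilage of newborn mice (Cho) gave H3K27ac replicates 1 and 2 and 1 H3K4me2 library, a methylation found at both promoters and enhancers. Primary dermal fibroblasts from the dorsal skin of newborn mice (DF), used in the study as negative control cells, gave 1 H3K27ac library. Rib chondrocytes of wild-type (WT) mice and of E160Δ/Δ E308Δ/Δ mice, with both alleles of the Sox9 enhancers E160 and E308 deleted after CRISPR/Cas9 editing of C57BL/6J embryos, gave 1 H3K27ac library each. With 1 library per group no test was made, and the 95% intervals of shares (exact binomial, Clopper-Pearson) cover counting error only. The lists differed in length, from 19454 peaks over 22.5 Mb in DF to 25213 over 23.6 Mb in E160Δ/Δ E308Δ/Δ, 33369 over 36.0 Mb in WT and 66355 over 92.2 Mb for H3K4me2, against 30.9 Mb in replicate 1. The lowest deposited scores, the caller's own measure of a peak, were 50 in replicate 1, H3K4me2 and DF. They were 20 in WT and E160Δ/Δ E308Δ/Δ and 13 in replicate 2, and depth is unknown. Replicate 2 was on another genome build (GRCm38) and was compared by gene name only, while all positions given here are mm9.

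The labelled cell types were checked at their defining genes. Of the chondrocyte markers Acan, Col9a1, Col11a1 and Hapln1, each had 2 to 7 replicate 1 peaks in or within 1 kb of its body and no DF peak. Col2a1 and Sox9 held no replicate 1 peak, although WT had 7 peaks at Col2a1 and 1 of 8247 bp at Sox9, where DF also had 1 peak, of 1297 bp, and Matn1 had no peak in any of the 5 mm9 lists. Of the fibroblast markers, Twist2 and Dpp4 had 2 DF peaks each and none in replicate 1, while Col1a1 and Col3a1 had 1 and 2 replicate 1 peaks and no DF peak, and Col1a2 and Tbx15 had 1 peak in both. WT chondrocytes had 4 peaks at Col1a1, 15 at Col1a2, 3 at Col3a1 and 2 at Twist2. The regions with no replicate 1 peak at Col2a1 and Sox9 could not add to any cluster. The study describes ChIP-Seq peaks at Col2a1 and Sox9 in chondrocytes and at Col1a1 in dermal fibroblasts. A gene or cluster without a peak in a list, in DF as well, therefore need not lack the mark.

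Sequence from the NCBIM37 (mm9) genome is shown for clusters at cartilage genes. The first set gives, with 15 bases on each side, inverted pairs of the core SOX word, ACAA and TTGT in capitals, 5 to 7 bases apart, as dimers of SOX9 can bind such pairs. All are read on the + strand, from peaks of the cluster 3.60 kb upstream of Col2a1, a cluster in Sox5, a cluster 338 kb downstream of Sox9, a cluster in Trps1, which encodes a growth plate repressor, and the farthest of the clusters upstream of Runx1. Pairs not shown also lay in clusters beside genes of other lists, among them Col1a2 and Thbs1 of connective tissue. Over whole peaks, pairs were no denser in clusters (6.32 per 100 kb) than outside (6.76).
Col2a1 side, peak 1, chr15:97838834-97838877: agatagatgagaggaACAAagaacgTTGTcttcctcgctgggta
Col2a1 side, peak 3, chr15:97858749-97858793: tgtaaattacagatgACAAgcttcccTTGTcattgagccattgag
Col2a1 side, peak 5, chr15:97878385-97878428: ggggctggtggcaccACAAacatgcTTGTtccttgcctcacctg
Sox5, peak 1, chr6:143996198-143996242: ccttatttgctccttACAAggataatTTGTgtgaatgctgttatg
Sox9 downstream, peak 4, chr11:112994717-112994759: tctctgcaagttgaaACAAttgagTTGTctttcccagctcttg
Trps1, chr15:50529834-50529876: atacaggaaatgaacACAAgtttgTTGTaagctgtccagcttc
Runx1 upstream, chr16:93239723-93239766: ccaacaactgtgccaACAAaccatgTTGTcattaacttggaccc

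The second set shows 200 bases on the summit of the highest-scoring WT peak in each of 5 clusters, on the + strand, with SOX words (ACAAAG or ACAATG on either strand) in capitals. They were chosen for the genes they accompany: Chst11 and Prkg2, the Acan side, Etv5 and the long noncoding RNA 6720401G13Rik. The windows at Chst11, Prkg2 and 6720401G13Rik held 1 SOX word each, and those at Acan and Etv5 held none in these 200 bases. Windows read in the same way beside Col2a1 and Cstad, in Sox5 and Runx1 and downstream of Sox9 are not printed and held none. In 300 bases on WT summits, a SOX word was found in 35.6% of those in clusters and 33.4% of those outside.
Chst11, chr10:82593670-82593869: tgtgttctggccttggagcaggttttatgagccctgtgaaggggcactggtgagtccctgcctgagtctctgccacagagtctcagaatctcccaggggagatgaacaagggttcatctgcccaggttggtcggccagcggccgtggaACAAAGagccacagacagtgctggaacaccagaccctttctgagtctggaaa
Prkg2, chr5:99373211-99373410: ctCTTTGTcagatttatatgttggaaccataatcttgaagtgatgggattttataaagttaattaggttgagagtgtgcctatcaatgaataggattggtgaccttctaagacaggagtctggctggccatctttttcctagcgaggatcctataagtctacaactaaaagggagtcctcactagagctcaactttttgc
Acan side, chr7:86110246-86110445: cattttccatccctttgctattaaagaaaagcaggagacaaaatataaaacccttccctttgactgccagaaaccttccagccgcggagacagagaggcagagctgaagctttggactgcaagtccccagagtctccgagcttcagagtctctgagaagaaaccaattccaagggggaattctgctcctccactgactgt
Etv5, chr16:22429280-22429479: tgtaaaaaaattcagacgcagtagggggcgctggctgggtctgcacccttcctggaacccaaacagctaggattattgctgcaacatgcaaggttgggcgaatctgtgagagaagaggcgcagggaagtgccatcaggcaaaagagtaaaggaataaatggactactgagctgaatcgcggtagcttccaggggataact
6720401G13Rik, chrX:47965077-47965276: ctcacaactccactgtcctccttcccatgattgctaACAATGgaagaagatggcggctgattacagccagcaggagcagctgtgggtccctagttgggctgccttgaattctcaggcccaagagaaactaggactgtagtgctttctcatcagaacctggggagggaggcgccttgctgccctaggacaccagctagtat

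The clusters were small groups for the most part. There were 194 of 4 peaks, 72 of 5, 32 of 6, 11 of 7 and 2 of 8 peaks, and the remaining 5 held 9, 9, 9, 12 and 15 peaks. The span had a median of 23.6 kb and ran from 3.37 to 75.5 kb. The summed peak width, on which the clusters were ranked, had a median of 5203.5 bp and ran from 1406 to 21498 bp, so that peaks filled a median of 23.3% of the span. A joined group of 3 peaks missed the rule by 1 peak, and there were 554 of these with a median summed width of 3077 bp, against 4370.5 bp for the 194 groups of 4. The widest gap joined inside a cluster was 12493 bp and the narrowest gap left beside a cluster was 12527 bp. Clusters lay on all chromosomes read, from 5 on chromosome X to 28 on chromosome 11, and their share of the distal peaks ran from 6.32% on chromosome 2 to 13.8% on chromosome 19.

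**Figure D1:**
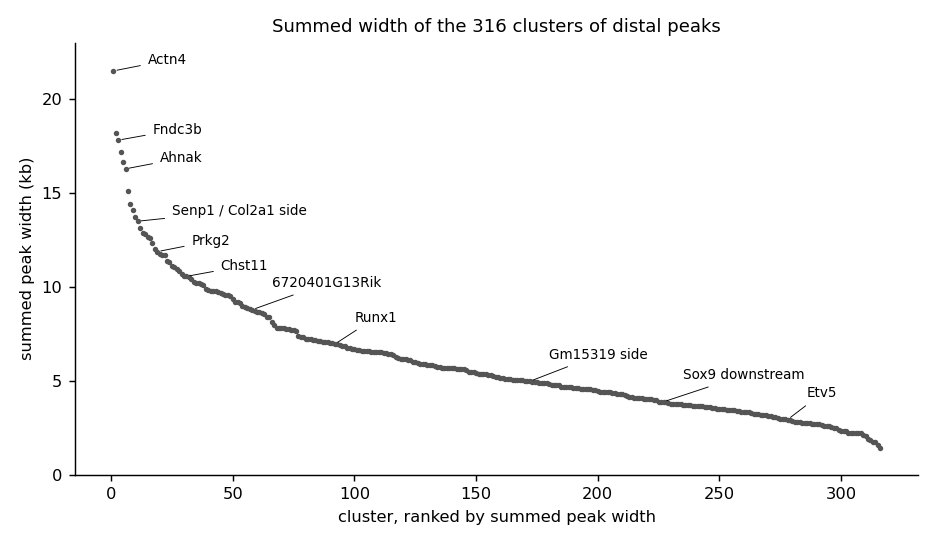
Summed width of the replicate 1 peaks (kb, linear axis from 0) of each of the 316 clusters against its rank, with 1 point per cluster and the names of genes in or beside 11 of them. The cluster in Actn4 stands above the rest at 21.5 kb, and the curve falls to 1406 bp without a step that would set a wide class apart.

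The widest cluster lay at chr7:29684681-29739478, within the body of Actn4, the gene of an actin-crosslinking actinin, with 6 peaks that summed to 21498 bp. WT peaks covered 93.3% of that width, E160Δ/Δ E308Δ/Δ 77.4%, DF 29.6% and H3K4me2 55.9%. The middle of each of its peaks lay in an intron, and peaks are called intronic by their middle throughout. Coverage means throughout the share of a cluster's summed peak width that lies under peaks of another list. The next 10 clusters summed to between 13497 and 18186 bp and overlapped Ctdspl, Fndc3b, Tcf4, Ccdc109a, Ahnak, Bcl2l1, Cpa1 with Tsga14, Vmp1, Apbb2 and Senp1 in order of width. They include the gene of a large scaffold protein of the membrane and cytoskeleton (Ahnak), the mitochondrial calcium uniporter (Ccdc109a) and the anti-apoptotic protein Bcl-xL (Bcl2l1). In these 11, WT coverage ran from 55.5% in Ccdc109a to 95.7% at Cpa1, and DF coverage from 0% at Senp1 to 84.4% in Vmp1.

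The cluster at Cpa1 and Tsga14, 47.1 kb from the imprinted gene Mest, combined the highest WT coverage of the 11 with little in DF (1.57%) and kept 89.4% in E160Δ/Δ E308Δ/Δ. The wider of the 2 clusters in Vmp1, which encodes a membrane protein of autophagy, was covered 84.4% in DF and 87.3% in WT, and the other 25.4% in DF and 98.5% in WT. Several genes held more than 1 cluster, and 11 of them held 2. Of these 11, Fndc3b had 25466 bp and Vmp1 25452 bp of clustered peak width.

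Across the 316 clusters, coverage was highest for H3K4me2, with a median of 84.1% (95% interval of the median from order statistics, 78.9–87.2). It was 67.9% (62.9–72.4) in WT, 48.3% (44.3–51.5) in E160Δ/Δ E308Δ/Δ and 19.1% (14.8–22.0) in DF. The H3K4me2 list was also the longest. With equal numbers of highest-scoring peaks per list (135 clusters), H3K4me2 had the lowest median, 10.5%. The other medians were then 71.0% in WT, 49.5% in E160Δ/Δ E308Δ/Δ and 21.8% in DF. With the full lists, WT covered more of the cluster than DF in 288 clusters (91.1%), less in 17, and the same in 11. The WT list was longer than the DF list. E160Δ/Δ E308Δ/Δ, whose list was shorter than that of WT, covered less than WT in 293 clusters, more in 6 and the same in 17, and more than DF in 239. In DF, 104 clusters (32.9%; 27.8–38.4) had no coverage at all, against 14 in WT, 29 in E160Δ/Δ E308Δ/Δ and 1 for H3K4me2. Over the bases of all clustered peaks, coverage was 67.2% in WT, 49.9% in E160Δ/Δ E308Δ/Δ and 25.1% in DF. Over those of all distal peaks it was 56.3%, 39.5% and 24.2%, so the order of these lists was not particular to clusters.

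**Figure D2:**
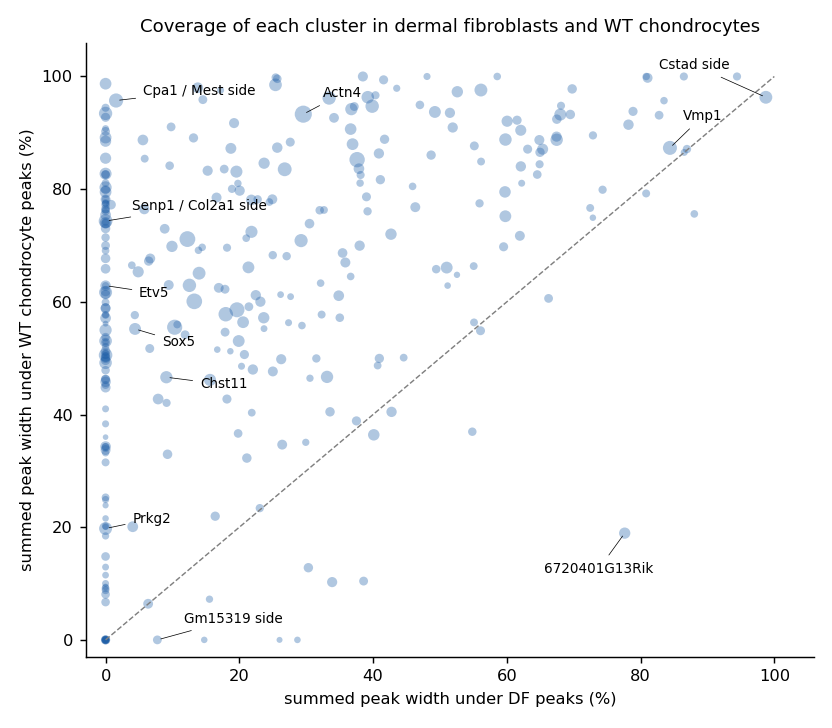
Coverage of each of the 316 clusters by DF peaks (horizontal axis, percent of the summed peak width) and by WT chondrocyte peaks (vertical axis, percent), with point area growing with summed width and the dashed line marking equal coverage. Most points lie above the line, 104 stand at 0% in DF, and the cluster over 6720401G13Rik stands far below the line at 77.6% in DF and 18.9% in WT.

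Peaks in clusters recurred more often in the other chondrocyte H3K27ac libraries than distal peaks outside them. A WT peak overlapped 77.2% (75.0–79.3) of the clustered peaks and 61.0% of the 14325 outside, where all distal peaks gave 62.5%. An E160Δ/Δ E308Δ/Δ peak overlapped 64.3% of the clustered peaks and 45.8% of those outside, with 47.5% over all distal peaks. The shares were closer in DF, with 31.9% (29.6–34.4) in clusters and 28.7% outside (29.0% over all). For H3K4me2 the order was the other way, with 83.3% in clusters and 86.9% outside (86.5% over all).

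Clustered peaks were wider than those outside, with a median of 984 against 770 bp, and scored slightly higher, with a median of 101 against 94.3. The outside peaks were therefore weighted to the score classes of the clustered peaks, in 5 classes of equal size. They then had a WT peak in 62.8%, an E160Δ/Δ E308Δ/Δ peak in 47.7%, a DF peak in 29.9% and an H3K4me2 peak in 87.7%. Weighted to the width classes, they had 68.0%, 53.2%, 32.3% and 88.7% in the same order. The clustered peaks were higher in WT and E160Δ/Δ E308Δ/Δ and lower for H3K4me2 in all 5 classes of both measures, while the difference in DF was not kept at equal width. Without weighting, the signs of all 4 differences were the same under each of 10 other ways of building the clusters. WT was 4.35 to 18.2 percentage points higher, E160Δ/Δ E308Δ/Δ 2.05 to 21.7, DF 1.54 to 9.34, and H3K4me2 2.09 to 17.7 lower. In the higher-scoring part of replicate 1, intervals of the clustered shares held the outside shares for WT and E160Δ/Δ E308Δ/Δ. These were 87.7% (79.9–93.3) against 83.4% in WT and 72.6% (63.1–80.9) against 70.6% in E160Δ/Δ E308Δ/Δ. With equal numbers of peaks per list, H3K4me2 overlapped 20.3% of the clustered peaks, which was 17.7 percentage points lower than its share outside clusters.

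Overlap changed with the number of peaks joined, also below the limit of 4. A WT peak overlapped 56.4% of the distal peaks that stood alone, 65.1% of those in pairs, 72.7% in groups of 3, 73.8% in clusters of 4 and 81.0% in clusters of 5 or more. In E160Δ/Δ E308Δ/Δ, the shares were 41.5%, 49.2%, 57.9%, 58.8% and 70.4%. Groups of 3 and of 4 did not differ beyond their intervals in either list. DF stayed between 28.1% and 30.7% up to clusters of 4 and was 34.9% (31.4–38.6) in those of 5 or more.

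**Figure D3:**
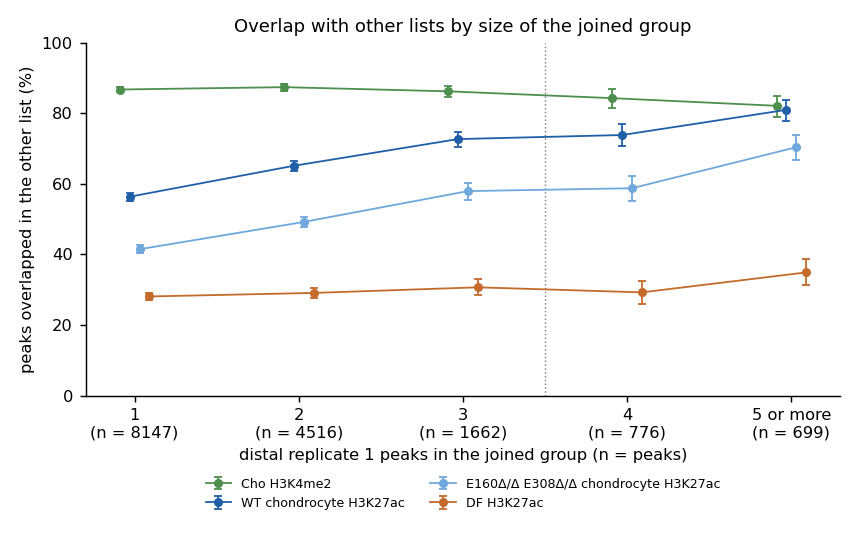
Share of distal replicate 1 peaks overlapped by at least 1 bp in each of 4 other lists (vertical axis, percent) by the number of peaks in the joined group (horizontal axis, n = peaks), with bars for exact binomial 95% intervals and a dotted line at the limit of 4. WT rises from 56.4% to 81.0%, while DF runs from 28.1% to 34.9% and H3K4me2 from 86.7% to 82.1%.

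The bases between the clustered peaks, which the rule left unmarked in replicate 1, were also read. A median of 9.31% of them lay under H3K4me2 peaks, 5.49% under WT, 1.98% under E160Δ/Δ E308Δ/Δ and 0.297% under DF peaks. WT had more peaks within the span than replicate 1 in 128 clusters and E160Δ/Δ E308Δ/Δ in 101. DF had more in 2 clusters.

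Coverage also varied with the size of the cluster. The 79 widest clusters had a median WT coverage of 78.1% and 25.3% of them had no DF coverage, against 52.9% and 48.1% in the 79 narrowest. Clusters without DF coverage had a median WT coverage of 52.4%, those with some but under 50% had 67.5%, and the 58 with at least 50% had 87.2%. No DF coverage therefore did not go with high WT coverage over the clusters, and 59 had none in DF and at least 50% in WT, of which 51 also had at least 50% for H3K4me2. By number of peaks, the H3K4me2 median was 77.2% in the 50 clusters of 6 or more, 85.6% in those of 5 and 84.9% in those of 4.

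The same rule was then applied to the other mm9 lists. It gave 1401 clusters in WT with 36.5% of its distal peaks, 849 in E160Δ/Δ E308Δ/Δ (32.7%), 2105 for H3K4me2 (21.6%) and 100 in DF (4.57%). A WT cluster overlapped 223 of the 316 clusters (70.6%; 65.2–75.5), an H3K4me2 cluster 216 (68.4%), an E160Δ/Δ E308Δ/Δ cluster 168 (53.2%) and a DF cluster 24 (7.59%; 4.93–11.1). Read from the other side, 16.0% of the WT clusters, 20.4% of the E160Δ/Δ E308Δ/Δ clusters, 10.1% of the H3K4me2 clusters and 24.0% of the DF clusters overlapped these 316.

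Replicate 2 held 613 clusters, with 26.4% of its 13304 distal peaks and up to 37 peaks in a cluster, in its own build. Fewer gene starts were known there (17273 with a strand, against 22350), so that peaks at unlisted promoters could count as distal. With the same 14600 genes in both builds, the rule gave 386 clusters in replicate 1 (9.85% of its distal peaks) and 630 in replicate 2 (25.9%). The 2 lists also differed in lowest score, 50 and 13, and the part of this in the counts was not tested. Of the 137 genes known in both annotations that overlapped a replicate 1 cluster, 77 (56.2%; 47.5–64.7) overlapped a replicate 2 cluster, where 2.35% of all 14600 did. The same 137 overlapped a WT cluster in 81.8% (4.42% of all genes), an E160Δ/Δ E308Δ/Δ cluster in 59.9% (2.79%), an H3K4me2 cluster in 70.1% (6.04%) and a DF cluster in 7.30% (0.247%). Long genes meet clusters more easily, and among the 74 of these genes at least 100 kb long the share with a replicate 2 cluster was 52.7%, against 7.31% of all genes of that length. Actn4, Ctdspl, Bcl2l1, Chst11, Runx1, Senp1 and Sox5 each overlapped 1 replicate 2 cluster, Ahnak and Vmp1 2 and Fndc3b 3. Ebf1, Etv5, Mef2c, Ppfibp1 and Stard13 overlapped none, although 3 to 15 distal replicate 2 peaks lay in each.

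The places of the clustered peaks resembled those of other distal peaks. By the middle of the peak, 51.3% lay in introns of protein-coding genes, 45.9% between genes, 1.42% in UTRs and 0.746% in coding exons, against 50.6%, 44.9%, 2.43% and 1.37% outside clusters. Of the 316 clusters, 150 lay within a single gene, 123 overlapped no protein-coding gene, and 19 had a TSS inside the span that no peak of the cluster reached. In all, 194 genes overlapped a cluster (0.868% of 22350) and 562 more had the nearest TSS on either side, which gave 756 genes in or next to a cluster (3.38%). The overlapping genes were long, with a median of 117 kb against 15.4 kb for all.

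Promoters of the genes at clusters, which the rule had left out, were marked more often than those of all genes. Of the 194 overlapping genes, 70.6% had a replicate 1 peak within 1 kb of the TSS (41.6% of all genes), 71.6% a DF peak (44.7%), 77.3% a WT peak (47.1%), 76.3% an E160Δ/Δ E308Δ/Δ peak (44.4%) and 85.6% an H3K4me2 peak (62.7%). The share marked in DF was thus close to that in replicate 1, although DF covered the clusters themselves least. Of the 756 genes in or next to a cluster, 57.0% had a replicate 1 promoter peak and 57.7% a DF promoter peak. The comparison with all genes was not matched for gene length.

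Genes of the fixed lists at clusters are described by role. A neighbouring gene is the nearest protein-coding TSS on either side, and no gene was shown to be the target of a cluster. Of 28 cartilage matrix genes, 5 had their TSS next to a cluster (Col2a1, Acan, Col11a1, Fmod and Prelp) and none overlapped one. Of 37 chondrogenic regulators, 10 were at clusters, with 6 overlapping (among them Sox5, Runx1, Trps1, Mef2c and Zfp521) and 4 next to one (Sox9, Hif1a, Barx2 and Nfatc1). The 5 matrix genes are 17.9% of their list, beside 3.38% of all protein-coding genes. Of 38 genes of dermal fibroblasts and connective tissue, 7 (18.4%) were also at chondrocyte clusters.

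The cluster beside Col2a1, the gene of type II collagen, was the widest without DF coverage. It lay at chr15:97838759-97882394, upstream of Col2a1 and reaching into an intron of Senp1, with 5 peaks that summed to 13497 bp. WT covered 74.3% of it, E160Δ/Δ E308Δ/Δ 56.4% and H3K4me2 39.1%. Peak 5, counted from the lower coordinate as in the sequences above, lay in the Senp1 intron, was 4280 bp wide, scored 477 (top 5.47% of the replicate 1 list) and was covered 77.9% in WT. Peak 3, 3843 bp wide, was covered 91.3% in WT against 75.6% in E160Δ/Δ E308Δ/Δ but had no H3K4me2 peak, and peak 2, 475 bp wide, had no partner in any list. Peaks 1, 3 and 5 carry the SOX pairs shown above.

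Beside the other matrix genes, coverage in DF was 0% at the clusters 80.1 kb from the TSS of Acan (4 peaks, chr7:86098062-86118316) and 144 kb from that of Col11a1 (4 peaks, chr3:113562300-113589731). WT covered 78.2% and 57.7% of them. The Acan-side cluster was covered alike in E160Δ/Δ E308Δ/Δ (78.0%), whereas the Col11a1-side cluster was covered 37.8% there. A cluster of 6 peaks at chr1:135855439-135876875, 37.4 kb from Prelp and 57.0 kb from Fmod, both small leucine-rich proteoglycans of the matrix, was almost fully covered in WT (99.4%), E160Δ/Δ E308Δ/Δ (98.1%) and H3K4me2 (99.5%), and 41.6% in DF.

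Sox5 held a cluster of 7 intronic peaks at chr6:143994970-144031775 that summed to 9891 bp. WT covered 55.2%, E160Δ/Δ E308Δ/Δ 26.0%, DF 4.41% and H3K4me2 95.7%. Peaks 1 and 3 were covered 80.7% and 58.8% in WT but 14.4% and 0% in E160Δ/Δ E308Δ/Δ, and peaks 6 and 7 had H3K4me2 but no other H3K27ac peak. The single DF peak fell on peak 5, which was 764 bp wide. Sox6, the partner of Sox5 in cartilage, was in the list of regulators and was not at a cluster.

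Around Sox9 there were 3 clusters within 1.5 Mb of its TSS, and neither deleted enhancer lay in any. Within 5 kb of the upstream positions that give E160 and E308 their names, their distance from the TSS in kb, replicate 1 had 1 distal peak each, in joined groups of 2 and of 1, and E160Δ/Δ E308Δ/Δ had no peak at either. WT had 1 and 2 peaks in these windows, and DF and H3K4me2 had 1 peak in each. The bounds of the elements themselves were not used, so a peak in a window need not lie on the element. The study describes the signal at both elements as very weak in dermal fibroblasts. The cluster nearest to the gene (4 peaks, chr11:112982028-112995419) began 338 kb downstream of the TSS, with 45.3% coverage in WT, 25.2% in E160Δ/Δ E308Δ/Δ, 99.8% for H3K4me2 and none in DF. Of its 4 peaks, only 3 and 4 had a WT peak. The next began 365 kb downstream and was covered 21.6% in WT against 0% in E160Δ/Δ E308Δ/Δ and DF. The cluster at chr11:112015967-112028978, 615 kb upstream, had no coverage in any of the 3 other H3K27ac lists and 32.2% for H3K4me2.

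Runx1, a transcription factor of early cartilage, had 1 cluster in its body and 2 beyond its TSS, at 245 and 412 kb. The one in the gene (5 peaks, chr16:92608377-92654923) was covered 76.4% in WT, 62.2% in E160Δ/Δ E308Δ/Δ and 5.79% in DF, and the 2 outside it 78.1% and 77.6% in WT and 21.8% and 0% in DF. Trps1 was covered 44.8% in WT, 19.2% in E160Δ/Δ E308Δ/Δ and 0% in DF. Mef2c, a regulator of chondrocyte hypertrophy, was covered in DF as well, at 51.1% against 62.9% in WT. Zfp521 was covered 98.0% in WT, 74.0% in E160Δ/Δ E308Δ/Δ and 13.8% in DF.

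**Figure D4:**
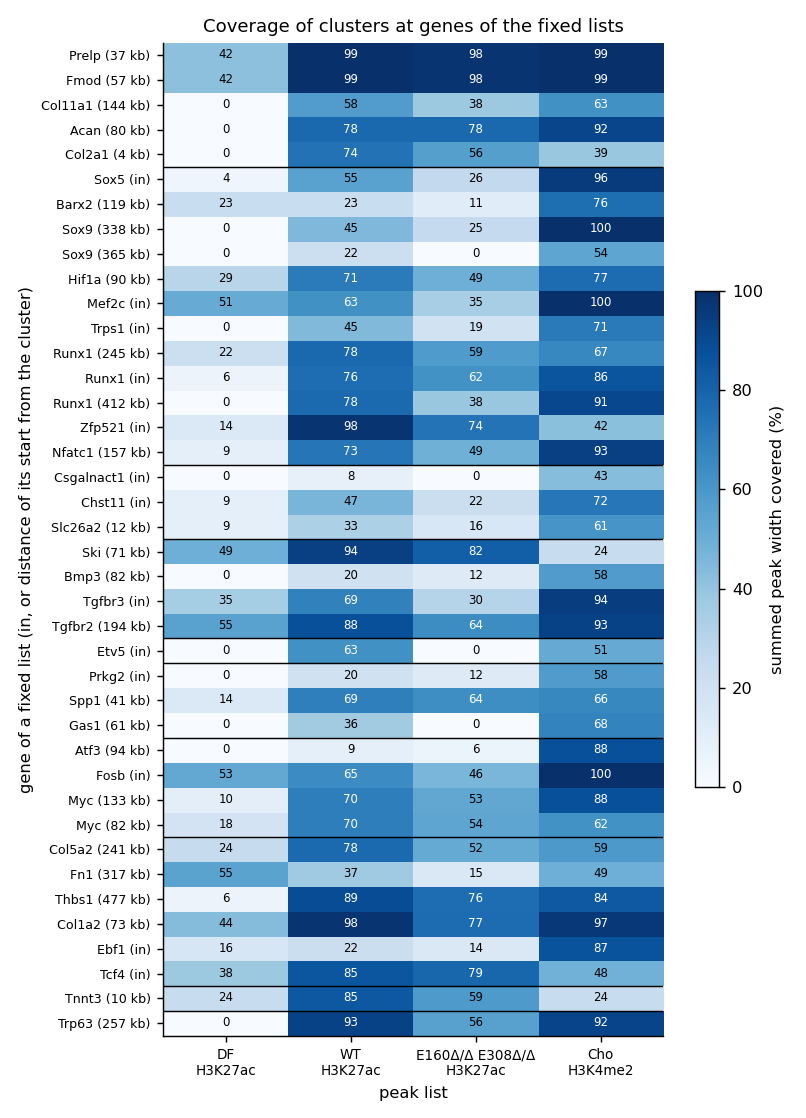
Coverage (percent of the summed peak width, color and number) of clusters in or next to genes of the fixed lists in DF, WT, E160Δ/Δ E308Δ/Δ and H3K4me2, 1 row per gene and cluster, with black lines between lists and the distance of the TSS in parentheses. Clusters beside Col2a1, Acan and Col11a1 stand at 0 in DF and 58 to 78 in WT, the one at Etv5 falls from 63 in WT to 0 in E160Δ/Δ E308Δ/Δ, and Id2, Dcn and Fgfr2 are left out for the reasons of position given in the text, as are results not reported here.

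Of 29 genes of glycosaminoglycan synthesis, 3 were at clusters. Chst11, a chondroitin 4-O-sulfotransferase, held 6 intronic peaks at chr10:82592180-82629880, which summed to 10562 bp and were covered 46.6% in WT, 22.2% in E160Δ/Δ E308Δ/Δ, 9.09% in DF and 72.3% for H3K4me2. Csgalnact1, which starts chondroitin chains, held a cluster that was covered 8.08% in WT and not at all in DF or E160Δ/Δ E308Δ/Δ. Slc26a2, the sulfate transporter of cartilage, had its TSS 12.1 kb from a cluster with 32.9% coverage in WT. The 3 clusters of this list were thus all below the WT median of 67.9%.

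Of 23 growth plate and Hedgehog genes, Prkg2 overlapped a cluster, and Spp1 (osteopontin) and the Hedgehog coreceptor gene Gas1 were next to 1 each. Prkg2 encodes the cGMP-dependent kinase of the growth plate. Its cluster at chr5:99365862-99395021, 82.4 kb from the TSS of Bmp3, held 5 peaks that summed to 11877 bp, with 19.8% coverage in WT, 12.4% in E160Δ/Δ E308Δ/Δ, none in DF and 57.9% for H3K4me2. Of the 5 peaks, 3 had no WT peak. The cluster at Gas1 was the narrowest of all at 1406 bp.

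Of 49 BMP and TGF-β genes, 5 were at clusters. Tgfbr3, an accessory TGF-β receptor, overlapped a cluster covered 68.7% in WT, 30.1% in E160Δ/Δ E308Δ/Δ and 35.4% in DF. The cluster 194 kb from Tgfbr2 was covered 87.7% in WT and 55.1% in DF, and that 71.1 kb from Ski, a repressor of this pathway, 93.7% and 49.2%. The clusters assigned to Id2 and, among the fibroblast genes, to Dcn lay 1290 and 846 kb from the TSS. Of 23 genes of FGF signalling, 2 overlapped a cluster. Etv5, a transcription factor induced by FGF, held 4 peaks at chr16:22428604-22435394, and Fgfr2 met a cluster only through a transcript model that gives the gene a length of 3009 kb in this annotation, and the same cluster lay in Fam53b.

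Of 21 AP-1 and immediate early genes, 3 were at clusters, with Fosb overlapping 1 (52.5% covered in DF and 64.8% in WT) and Myc and Atf3 beside them. Both clusters beside Myc were covered about 70% in WT, at 69.8% and 69.6%, and 9.93% and 18.2% in DF. Of the connective tissue genes, Col1a2 had a cluster 73.2 kb away with 97.9% coverage in WT and 43.5% in DF, and Fn1 one 317 kb away that was covered more in DF (54.8%) than in WT (37.0%). Tcf4 and Ebf1 overlapped clusters with 37.6% and 16.4% coverage in DF. Of 12 muscle genes, Tnnt3 was next to a cluster, and of 7 keratinocyte genes, Trp63. The 10 endothelial, 9 blood, 7 nerve, 5 adipocyte and 8 osteoblast genes found in the annotation had none. Since 3.38% of all protein-coding genes were in or next to a cluster, lists this short could hold none at that share.

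The widest clusters without DF coverage included the one beside Col2a1 and those in Tox, Ppfibp1 and Prkg2. Tox, which encodes an HMG-box protein, held 4 peaks summing to 12618 bp that were covered 93.4% in WT, 75.6% in E160Δ/Δ E308Δ/Δ and 87.6% for H3K4me2. Ppfibp1, for a liprin, held the longest cluster, with 12 peaks over 75.5 kb, 61.7% coverage in WT against 46.9% in E160Δ/Δ E308Δ/Δ. Of these 12 peaks, 5 had no WT peak.

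At the other end, 12 clusters were covered at least 80% in DF. The widest were the wider one in Vmp1 and those between Cstad and 1700001O22Rik (7 peaks, chr2:30540610-30576379), 92.5 kb from Tomm20, 27.6 kb from Snai1, and between Coro2b and Itga11, which encode a coronin and an integrin subunit that binds collagen. The cluster at Cstad was covered 98.7% in DF, 96.3% in WT, 90.9% in E160Δ/Δ E308Δ/Δ and 98.8% for H3K4me2, the highest in DF of the 316. In DF, WT, E160Δ/Δ E308Δ/Δ and H3K4me2 alike, a cluster under the same rule overlapped its whole span or nearly so, from 35756 to 35770 bp of 35770.

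The cluster with the most peaks had another pattern. Its 15 peaks of 278 to 811 bp at chrX:47924961-47976709 lay over 6720401G13Rik, a long intergenic noncoding RNA later named Firre, and overlapped no protein-coding gene. DF covered 77.6% of its summed width and H3K4me2 78.0%, but WT covered 18.9% and E160Δ/Δ E308Δ/Δ 4.71%. Of the 15 peaks, 12 had a DF peak, 6 a WT peak and 1 an E160Δ/Δ E308Δ/Δ peak. Only this cluster and that near Fn1 were covered at least 50% in DF and under 50% in WT.

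**Figure D5:**
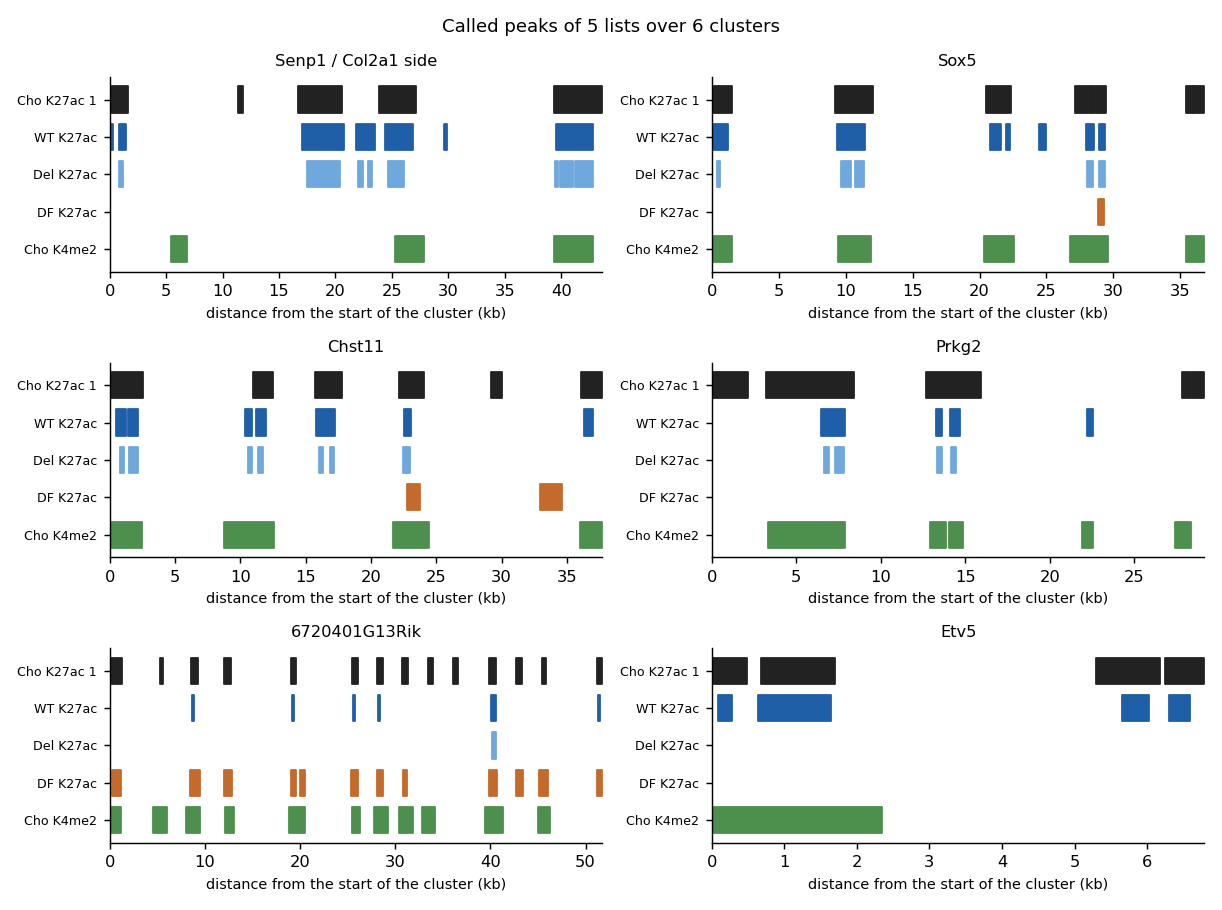
Called peaks (bars) of Cho H3K27ac replicate 1, WT, E160Δ/Δ E308Δ/Δ (Del), DF and Cho H3K4me2 over 6 clusters, by distance from the start of the cluster (kb), clipped to its span. At Col2a1 and Prkg2 the DF row is empty, at Etv5 both the DF and the Del rows are empty, and over 6720401G13Rik DF bars lie at 12 of the 15 replicate 1 peaks.

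In 14 clusters no peak of WT lay on any clustered peak, and in none of these had E160Δ/Δ E308Δ/Δ coverage either. The widest 5 were those in Cog5 (6 peaks, 5685 bp), beside Gm15319 (9 peaks, 4973 bp), upstream of Sox9, in Cwc22 and in Got1. All but 1 had H3K4me2 coverage, from 32.2% upstream of Sox9 to 100%, and 10 of the 14 had none in DF. The exception for H3K4me2 was a cluster on chromosome X (5 peaks, 1770 bp), which no other list covered.

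Clusters covered in WT and not at all in E160Δ/Δ E308Δ/Δ numbered 15, and no cluster was covered in the latter and not in WT. None of these 15 reached 80% in WT. The largest falls in coverage were in Etv5 (62.9% to 0%), Sybu (55.2% to 0%), Msi2 (69.1% to 17.3%), Rhoj (51.2% to 0%) and Rnf144a (67.2% to 21.4%). At Etv5 each of the 4 peaks had a WT peak, with 41.3% to 95.4% of its width covered, and none had a DF peak. Of the clustered peaks with a WT peak, 82.7% (80.4–84.9) also had an E160Δ/Δ E308Δ/Δ peak, against 74.6% (73.7–75.5) outside clusters. The part of the shorter E160Δ/Δ E308Δ/Δ list in these falls was not tested.

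The 6 clusters covered more in E160Δ/Δ E308Δ/Δ than in WT differed by 0.524 to 12.6 percentage points. The largest of these differences was at the cluster of 4 peaks between Bcl6 and Lpp (20.1% in WT against 32.7% in E160Δ/Δ E308Δ/Δ), and the cluster beside Fads2 followed with 6.41% and 10.4%. H3K4me2 coverage was low in some wide clusters that WT covered well, such as that in Ahdc1 (11.3% for H3K4me2, 94.2% in WT), Bcar1 (19.7% and 88.8%) and near Ski (24.0% and 93.7%).

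Short words of transcription factor motifs were counted in 300 bases on the middle of each peak, on both strands. The AP-1 word TGANTCA was found in 13.1% of the clustered and 13.4% of the outside peaks (13.3% of all distal peaks). The SOX words ACAAAG or ACAATG were found in 32.5% and 34.2% (34.0%), the RUNX word TGTGGT in 22.2% and 20.6% (20.7%), the GATA word AGATAA in 14.8% and 14.5% (14.6%) and the E-box CACGTG in 4.41% and 3.91% (3.96%). The inverted SOX pair, which shares its ACAA with the SOX words, was found in 2.10% and 1.89% (1.91%). The intervals of clustered and outside peaks overlapped for each of these words. Over whole peaks there were 6.32 inverted pairs per 100 kb in clusters and 6.76 outside. GC content had a median of 47% in clustered and 45% in outside windows.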

How the data were processed

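Peak lists of H3K27ac and H3K4me2 ChIP-Seq were used as deposited. Per the submitters' processing notes and the study's methods, the authors cleaned reads with fastp, mapped them to mm9 with Bowtie2 2.4.4 and called peaks per library with MACS2 2.2.4 at its default q-value with input as control. Replicates were not pooled. The score the authors deposited for each peak is the caller's own and ranks peaks within 1 list only. The WT, E160Δ/Δ E308Δ/Δ and replicate 2 lists also hold the deposited fold enrichment (a ratio) and −log10 p and q at the summit, which were not used beyond the summit position. The 3 other lists are in the 5-column format of earlier MACS releases. The lists give no read numbers, so depth is unknown. The input library was not analysed here.

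Genes were the 22350 protein-coding genes of GENCODE vM1 (mm9) on chromosomes 1 to 19 and X. Replicate 2 was placed on GRCm38, since it marked 43.9% of 14600 shared promoters with GRCm38 positions (RefSeq, strand from the promoter table) and 6.09% with mm9 positions. No coordinate was converted. An overlap of 1 bp counted as shared. Words were searched in the NCBIM37 genome. The regions named were the 12 widest clusters, the 5 widest with 0% or at least 80% in DF, the 5 widest with 0% in WT, the 5 largest falls from WT to E160Δ/Δ E308Δ/Δ, the 5 with the most peaks, those within 1.5 Mb of Sox9, and all at genes of the fixed lists. Clusters named beyond these (Ahdc1, Bcar1, Bcl6 and Lpp, Fads2, chromosome X) and the genes with several clusters were chosen after their values were seen, as were the printed sequences. The clusters and lists were chosen with earlier results of these data known. Weighting by score and width, the inverted SOX pair and the genes shared by both annotations were added after the data were seen. Results of some genes that these rules name are not reported here. On simulated lists the scripts returned all 451 planted clusters with their coverage. Python 3.11.15, pandas 2.3.3, NumPy 2.4.6, SciPy 1.17.1 and matplotlib 3.10.9 were used.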

Additional observations from a re-analysis of the deposited data

How the results depend on the processing

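Of 152 values under other settings, 68 stayed within the interval of the reported value, or for counts within 1.5 times, and 84 moved. A reversal was not defined for these values, although H3K4me2 went from the highest to the lowest median coverage with lists of equal length. A promoter distance of 2.5 kb and autosomes only moved none, and starts of all transcripts moved only the share of distal peaks in clusters (8.86%). The values that moved are given as number of clusters, share of distal peaks in them, shares of clustered peaks with a partner, median coverage, and counts of clusters. A gap of 5 kb left 30 clusters and 0.810%, with partners of 59.4% in E160Δ/Δ E308Δ/Δ and 73.4% for H3K4me2, medians of 12.9% in DF and 73.1% for H3K4me2, 14 clusters without DF coverage, 27 higher in WT than in DF and 27 lower in E160Δ/Δ E308Δ/Δ than in WT. A gap of 25 kb gave 702 and 23.7%, with partners of 72.6% in WT against 59.5% in E160Δ/Δ E308Δ/Δ, a median of 42.6% in the latter, and counts of 210, 639 and 660. At least 3 peaks gave 870 and 19.9%, with partners of 74.8% and 60.9%, a median of 43.8%, and counts of 349, 753 and 785. At least 6 peaks gave 50 and 2.15%, with partners of 37.5% in DF, 68.7% in E160Δ/Δ E308Δ/Δ and 80.5% for H3K4me2, medians of 29.4% in DF, 76.6% in WT, 57.1% in E160Δ/Δ E308Δ/Δ and 77.2% for H3K4me2, and counts of 6, 45 and 48. The higher-scoring 12790 replicate 1 peaks gave 24 and 1.76%, with partners of 53.8% in DF, 87.7% in WT, 72.6% in E160Δ/Δ E308Δ/Δ and 92.5% for H3K4me2, medians of 36.2%, 75.0% and 57.1% in the first 3, and counts of 5, 22 and 23. Equal lists of 19454 peaks gave 135 and 5.53%, with partners of 36.3% in DF, 71.3% in WT and 20.3% for H3K4me2, a median of 10.5% for H3K4me2, and counts of 41, 118 and 120. Merging peaks under 1 kb apart first gave 162 and 5.44%, with a partner for 67.6% in E160Δ/Δ E308Δ/Δ, medians of 74.0% in WT against 54.1% in E160Δ/Δ E308Δ/Δ, and counts of 40, 151 and 152.

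With at least 50% of the peak covered, partners fell to 24.2% in DF, 64.0% in WT, 46.1% in E160Δ/Δ E308Δ/Δ and 80.2% for H3K4me2. Without replicate 1, replicate 2 gave 613 clusters and 26.4%, and WT gave 1401 and 36.5%. With genes of both annotations, added after the data were seen, replicate 1 gave 9.85%, and replicate 2 gave 630 clusters and 25.9%. Overlapping genes alone numbered 194. Windows of 600 bases held the SOX words in 53.9% of the clustered peaks, AP-1 in 24.9%, RUNX in 38.1%, GATA in 25.2% and the E-box in 8.07%. The cause of these moves was not tested beyond the change of peaks or bases that each setting makes. No paired analysis was possible because only 1 group had 2 libraries and these were on different builds. Read depth is unknown and sets what a missing peak means.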
